A study of Mus musculus with 6 samples.

Results

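The genes described here are 10 markers of resident cardiac fibroblasts and of fibroblast progenitors, *Tcf21*, *Ddr2*, *Thy1*, *Gsn*, *Dpep1*, *Ly6a*, *Cd34*, *Pi16*, *Vim* and *S100a4*. They were chosen by gene symbol from the 28987 genes of the deposited expression table, and all 10 were found, were above 0 in each of the 6 libraries and passed the filter on low values. RNA was sequenced from ventricular EGFP+ cells that were isolated by sorting 4 weeks after mice underwent TAC (transverse aortic constriction), an operation that narrows the aorta and loads the heart with pressure. The design asks how removal of Hsp47 from activated fibroblasts alters their mRNA profile.

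All mice, controls included, carried a tamoxifen-activated Cre recombinase (MerCreMer) knocked into the *Postn* locus and a Cre-dependent EGFP reporter in the *Rosa26* locus, and all received tamoxifen and TAC. The labels give tamoxifen as injections of 100 mg/kg and chow of 40 mg/kg, and an age of 8 to 10 weeks at operation. The methods of the study state other doses for both injections and chow, and TAC at 8 weeks of age. The 3 mice labelled Hsp47-deleted were in addition homozygous for a loxP-targeted *Hsp47* allele (Hsp47 fl/fl), and no such allele is listed for the 3 controls. Sorting on EGFP keeps cells that have switched on *Postn*, so that resting fibroblasts that never did so were not selected in either group. The labels place 2 controls (replicates 3 and 4) in a sequencing run of their own, called the first run for its lower run number, and put the remaining control (replicate 2) with all 3 libraries labelled Hsp47-deleted in the second run.

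Fibroblasts of the adult heart descend mostly from the epicardium, and their identity rests on transcription factors such as Tcf21, on collagen-sensing receptors such as Ddr2 and on surface proteins such as Thy1, Sca-1 (*Ly6a*) and Cd34. In response to injury they become myofibroblasts, which produce matrix and switch on genes such as *Postn* and *Cthrc1*, and *Tcf21* is known to decline during this transition. *Vim* and *S100a4* are used as fibroblast markers but are also expressed in leukocytes, and *Thy1*, *Ly6a* and *Cd34* are also expressed in endothelial cells.

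None of the 10 genes differed between the groups at a Benjamini-Hochberg (BH) adjusted limma p under 0.05, a threshold passed by 0.245% of the 15109 genes tested. *Tcf21*, *Pi16*, *Vim* and *Gsn* reached an unadjusted limma p under 0.05, with the higher mean in the libraries labelled Hsp47-deleted, a level that 15.2% of all tested genes reached in either direction and 14.5% in the higher direction. The other 6 did not reach it. Fold changes are differences of log2(value + 1), the scale of the deposited table, on which changes of low values are understated. The median difference of the 10 genes was 0.64, beside 0.35 for all tested genes, and 7 of the 10 had a positive difference, as did 74.5% of all tested genes. The median of the 10 was 0.27 without control replicate 3, 0.31 without control replicate 4 and 1.03 without control replicate 2.

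The values depended on which controls were used. With sequencing run as a covariate in the same fit, the median over the 10 genes was -0.23 and that over all tested genes 0.29. *Thy1*, *Cd34* and *S100a4* then had negative differences and *Ddr2* a positive one. Since the first run holds controls only, the estimate of that fit equals the mean of the 3 libraries labelled Hsp47-deleted minus the 1 control of the second run. Its standard errors come from the spread among the first-run controls and among the libraries labelled Hsp47-deleted, and the lone control is assumed to vary like them. None of the 10 passed the adjusted threshold in this fit, which 0.331% of all tested genes passed. The unadjusted threshold was passed by *Tcf21* and *Vim*, and by 6.73% of all tested genes.

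**Figure D1:**
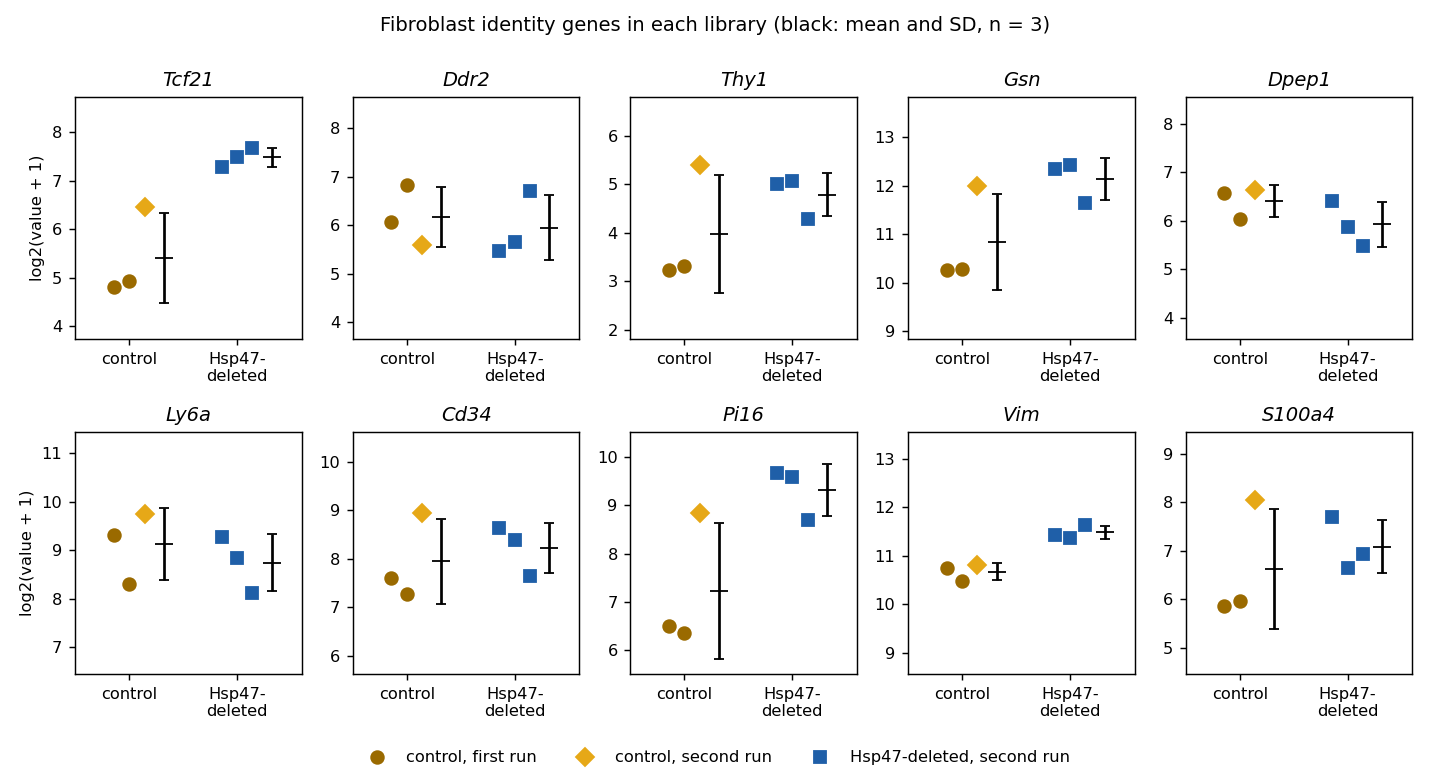
Each panel plots 1 gene as log2(value + 1) in each of the 6 libraries, with circles for the 2 controls of the first run, diamonds for the control of the second run, squares for the 3 libraries labelled Hsp47-deleted, and black bars for the mean and SD (n = 3) of each group. All panels span the same number of log2 units, and only in *Tcf21* and *Vim* do the squares lie above all controls.

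*Hsp47* itself is listed as *Serpinh1* (chromosome 7, 99345376 to 99353239, minus strand, GENCODE M21 on GRCm38). Both controls of the first run were low, at log2 values of 6.28 and 6.10, and the control of the second run was the highest library, at 7.60. The libraries labelled Hsp47-deleted lay between them at 6.87, 6.67 and 6.66. Pooled, the groups differed by 0.072 (standard error 0.43, 95% interval -0.91 to 1.06, limma, BH-adjusted p = 0.947), and within the second run by -0.87. The targeted transcript therefore did not separate the groups in the pooled comparison, the table does not resolve exons, and the groups are named by their labels throughout. At the level of protein, the study reports by Western blot that Hsp47 was efficiently lost from sorted EGFP+ cells of the deleted genotype.

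The unit of the values before the log2 is not named and they are not counts, so the depth of the libraries is unknown. Genes above 0 numbered 18888 and 19221 in the first-run controls, 20558 in the second-run control and 20678 to 21107 in the libraries labelled Hsp47-deleted. The linear values of all genes summed to 690499 and 759227, then 809085, then 800714 to 855404. Marker genes of endothelial cells, cardiomyocytes and leukocytes were present in all libraries, and their sums were lowest in the first-run controls. The linear values of 10 endothelial markers, all above 0 in every library, summed to 105 and 240 in the controls of the first run, 639 in the control of the second run, and 286 to 601 in the libraries labelled Hsp47-deleted. The sum of 10 cardiomyocyte markers was 52.7 and 105, then 299, then 183 to 299. Of the 10 leukocyte markers, the defining marker *Ptprc* was listed at 0 in all libraries, and the sum was 39.1 and 84.1, then 109, then 117 to 142. The 10 fibroblast identity genes summed to 3482 and 4099, then 8198, then 7754 to 10287, so that the controls of the first run were lowest in this sum as well. Most of each of these sums came from *Gsn* and *Vim*, with linear values of 5174 and 2772 of the 10287 in replicate 1 labelled Hsp47-deleted. In RNA from sorted pools, fewer cells of a type and less RNA per cell cannot be told apart, and the part of these other cells in the results was not tested.

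The transcription factor *Tcf21* (chromosome 10, 22817281 to 22820174, minus strand) is a basic helix-loop-helix protein required for cardiac fibroblasts to form in the embryo. Its log2 value was 4.80 and 4.92 in the controls of the first run, 6.47 in the control of the second run, and 7.28, 7.50 and 7.67 in the libraries labelled Hsp47-deleted. The groups did not overlap, and the first-run controls were the lowest 2 libraries. The control mean was 5.40 ± 0.93 (SD, n = 3), and that of the libraries labelled Hsp47-deleted was 7.48 ± 0.20 (SD, n = 3). The difference was 2.09 (standard error 0.47, 95% interval 1.00 to 3.17, limma, BH-adjusted p = 0.187), and the exact two-sided permutation p was 0.1, the smallest that 3 against 3 allows. Of all tested genes, 19.8% had groups that did not overlap, and 18.3% did so with the libraries labelled Hsp47-deleted higher. Within the second run, all 3 of these libraries were above the control by a mean difference of 1.02 (standard error 0.33, 95% interval 0.25 to 1.78, limma with run as a covariate, BH-adjusted p = 0.637). In turn, the second-run control was 1.60 above the mean of the first-run controls.

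*Vim* (chromosome 2, 13573927 to 13582826, plus strand) encodes vimentin, the intermediate filament protein of mesenchymal cells. The controls were close to each other, at 10.74 and 10.47 in the first run and 10.80 in the second, and the libraries labelled Hsp47-deleted stood at 11.44, 11.37 and 11.64. Here the groups did not overlap either. The difference of 0.81 (standard error 0.32, 95% interval 0.079 to 1.54, limma, BH-adjusted p = 0.310) was accompanied by an exact permutation p of 0.1. Of the 10 genes, *Vim* showed the smallest step between the runs, with the second-run control only 0.20 above the first-run controls, and its difference within the second run was 0.68 (standard error 0.28, 95% interval 0.018 to 1.34, limma with run as a covariate, BH-adjusted p = 0.723).

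*Pi16* (chromosome 17, 29317680 to 29330593, plus strand) encodes a surface-anchored peptidase inhibitor that marks fibroblast progenitors around vessels in several tissues. It was at 6.50 and 6.35 in the first-run controls, 8.85 in the second-run control and 9.66, 9.58 and 8.70 in the libraries labelled Hsp47-deleted. The groups overlapped, since replicate 3 labelled Hsp47-deleted was below the second-run control. The difference was 2.08 (standard error 0.67, 95% interval 0.52 to 3.64, limma, BH-adjusted p = 0.283; exact permutation p = 0.2). It was 0.47 within the second run (95% interval -0.55 to 1.48), whereas the second-run control exceeded the first-run controls by 2.42.

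*Gsn* (chromosome 2, 35256380 to 35307892, plus strand), which encodes the actin-severing protein gelsolin, resembled *Pi16* in the place of the second-run control. Values were 10.25 and 10.27 in the first-run controls, 11.99 in the second-run control and 12.34, 12.42 and 11.64 in the libraries labelled Hsp47-deleted. The control of the second run thus lay within the range of the other group. The pooled difference was 1.30 (standard error 0.55, 95% interval 0.033 to 2.56, limma, BH-adjusted p = 0.323; exact permutation p = 0.2). Within the second run it was 0.14 (95% interval -0.71 to 1.00), beside a step of 1.73 between the controls of the 2 runs.

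Promoter stretches of *Tcf21* and *Gsn* are shown because both genes were among the 4 with an unadjusted p under 0.05 and these stretches held no annotated exon. The corresponding windows of *Pi16* and *Vim* overlapped annotated exons and are not printed. *Gsn* has 3 promoter windows, with 1, 3 and 2 E-boxes over their full length, and the window with the lowest coordinate is printed. Which start these cells use is not known. Each run covers bases 250 to 32 before the RefSeq start, read 5′ to 3′ on the strand of the gene from RefSeq on GRCm38.p6, at chr10:22820175-22820393 (minus strand) and chr2:35256109-35256327 (plus strand). Capitals mark an E-box, CANNTG, the kind of site bound by basic helix-loop-helix factors such as Tcf21.
Tcf21: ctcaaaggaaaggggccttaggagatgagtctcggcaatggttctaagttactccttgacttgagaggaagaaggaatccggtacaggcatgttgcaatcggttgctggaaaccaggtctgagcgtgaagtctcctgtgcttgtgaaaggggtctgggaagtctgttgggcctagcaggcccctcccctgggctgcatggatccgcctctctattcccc
Gsn: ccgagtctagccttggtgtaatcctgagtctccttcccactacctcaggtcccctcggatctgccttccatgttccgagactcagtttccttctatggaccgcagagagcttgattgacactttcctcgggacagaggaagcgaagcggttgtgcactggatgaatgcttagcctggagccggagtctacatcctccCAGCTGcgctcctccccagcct
The *Gsn* stretch held 1 E-box, with the letters CAGCTG, and the *Tcf21* stretch held none. Searched on both strands over the full windows of 300 bases (250 before to 50 after the start), CANNTG was present in 72.3% of 32851 mouse promoters and CAGCTG, which is one form of it, in 16.3%. For the 10 windows found for 8 of the fibroblast identity genes (3 of them for *Gsn*, and none for *Thy1* and *Ly6a*), the counts were 6 and 4. TATAAA was found in 3 of the 10 windows and in 13.6% of all promoters, GGGCGG (SP1) in 3 and 35.7%, GGAATG (TEAD) in 1 and 14.7%, and TGANTCA (AP-1) in 0 and 7.8%. A match is a run of letters and not evidence of binding.

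Among the surface proteins, *Thy1* (chromosome 9, 44043384 to 44048579, plus strand) encodes the lipid-anchored glycoprotein CD90. It stood at 3.23 and 3.32 in the first-run controls, 5.39 in the second-run control and 5.01, 5.08 and 4.28 in the libraries labelled Hsp47-deleted, so that a control was both the lowest and the highest library. The pooled difference was 0.81 (standard error 0.60, 95% interval -0.57 to 2.19, limma, BH-adjusted p = 0.515; exact permutation p = 0.4), and from 0.44 to 1.52 with 1 library left out. Within the second run the sign was the opposite, -0.60 (95% interval -1.60 to 0.40), with all 3 libraries labelled Hsp47-deleted below the control. The step from the first-run controls to the second-run control was 2.12.

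*Cd34* (chromosome 1, 194938819 to 194961279, plus strand), a sialomucin of progenitor, endothelial and stromal cells, was arranged like *Thy1* across the libraries. Its values were 7.61 and 7.28 in the first run, 8.95 in the second-run control and 8.63, 8.38 and 7.64 in the libraries labelled Hsp47-deleted. The latter fell between the lowest and the highest control. The difference was 0.27 pooled (standard error 0.50, 95% interval -0.88 to 1.42, limma, BH-adjusted p = 0.809; exact permutation p = 0.7) and -0.73 within the second run (95% interval -1.75 to 0.28). For both *Cd34* and *Thy1*, the second-run control and replicate 3 labelled Hsp47-deleted were the highest and the lowest of the second-run libraries. The same held for *Ly6a* and *Dpep1*, and for the summed markers of endothelial cells, cardiomyocytes, mural cells and erythroid cells. It did not hold for those of leukocytes, Schwann cells and mesothelial cells.

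*Ly6a* (chromosome 15, 74994877 to 74998031, minus strand) encodes Sca-1, a lipid-anchored protein of mouse stromal and haematopoietic progenitors. It was at 9.31 and 8.30 in the first-run controls, 9.75 in the second-run control and 9.28, 8.84 and 8.13 in the libraries labelled Hsp47-deleted. The groups overlapped, and the 2 first-run controls differed from each other more than in any other of the 10 genes. The difference was -0.38 pooled (standard error 0.47, 95% interval -1.47 to 0.72, limma, BH-adjusted p = 0.716; exact permutation p = 0.5) and -1.005 within the second run (95% interval -2.27 to 0.27).

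Reads of *Ly6a* may be shared with its neighbours in the Ly6 family, and the start of the coding sequences is shown for that reason. The lines give the first 90 coding bases, 5′ to 3′, from GENCODE M21 transcripts on GRCm38, with capitals at each base that differs from *Ly6a*.
Ly6a: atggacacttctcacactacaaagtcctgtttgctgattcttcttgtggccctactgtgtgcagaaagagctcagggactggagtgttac
Ly6c1: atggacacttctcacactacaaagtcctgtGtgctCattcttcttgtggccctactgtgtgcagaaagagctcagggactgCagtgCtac
Ly6c2: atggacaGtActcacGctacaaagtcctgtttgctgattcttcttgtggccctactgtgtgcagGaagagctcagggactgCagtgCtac
Ly6i: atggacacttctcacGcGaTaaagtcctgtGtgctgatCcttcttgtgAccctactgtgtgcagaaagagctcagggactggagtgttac
In these stretches 4 bases of *Ly6c1*, 6 of *Ly6c2* and 6 of *Ly6i* differed from *Ly6a*. Identity to the *Ly6a* coding sequence of 405 bases, counted over aligned bases without gaps, was 78.1% for *Ly6c1*, 83.6% for *Ly6c2* and 86.4% for *Ly6i*. The longest annotated coding sequence of each was used, with 444, 396 and 405 bases. Their longest runs without a difference were 45, 52 and 80 bases. At the level of transcripts, *Ly6i* aligned at 92.8% identity over 98.8% of *Ly6a* and *Ly6c1* at 96.6% over 78.3%, neither of which reached both limits set for a near-identical copy (95% over 80%).

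The relatives showed the steps between runs as well. *Ly6c2* was listed at 0 in both first-run controls and lay at 4.04 in the second-run control and 3.80, 3.98 and 4.07 in the libraries labelled Hsp47-deleted. *Ly6c1* was at 5.67 and 4.15 in the first run, 7.53 in the second-run control and 6.92, 6.88 and 5.65 in the libraries labelled Hsp47-deleted. *Ly6i* did not exceed 1.86 in any library. Of the summed linear values of the 4 genes, *Ly6a* made up 92.6% and 94.9% in the first-run controls and 77.3% to 82.2% in the second-run libraries. The log2 of the sum differed by -0.22 between the groups and by -0.99 within the second run, the same sign as *Ly6a* alone.

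**Figure D2:**
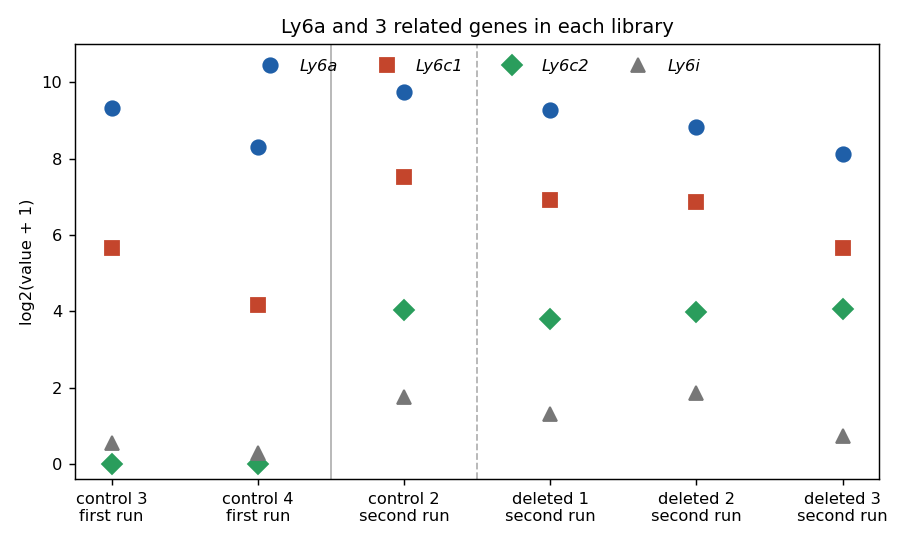
The log2(value + 1) of *Ly6a*, *Ly6c1*, *Ly6c2* and *Ly6i* is plotted for each of the 6 libraries, with a solid line between the sequencing runs and a dashed line between the second-run control and the libraries labelled Hsp47-deleted. *Ly6c2* is at 0 in both first-run controls and between 3.80 and 4.07 in the 4 libraries of the second run, and *Ly6a* is highest in the second-run control, at 9.75.

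*Ddr2* (chromosome 1, 169972307 to 170110762, minus strand), a receptor tyrosine kinase that binds fibrillar collagen, was the only one of the 10 genes with a second-run control below both first-run controls. It was at 6.06 and 6.83 in the first run, 5.61 in the second-run control and 5.48, 5.66 and 6.72 in the libraries labelled Hsp47-deleted. The groups overlapped over almost their whole range. The difference was -0.21 (standard error 0.45, 95% interval -1.26 to 0.84, limma, BH-adjusted p = 0.836; exact permutation p = 0.6), and 0.35 within the second run (95% interval -0.96 to 1.66).

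*Dpep1* (chromosome 8, 123186242 to 123201812, plus strand) encodes a membrane dipeptidase. Its values were 6.56 and 6.03 in the first-run controls, 6.63 in the second-run control and 6.41, 5.87 and 5.48 in the libraries labelled Hsp47-deleted. Although 2 of the 3 latter libraries were below all controls, the groups overlapped. The difference was -0.49 (standard error 0.34, 95% interval -1.28 to 0.31, limma, BH-adjusted p = 0.499; exact permutation p = 0.2) and -0.71 within the second run (95% interval -1.75 to 0.33). Its step between runs, 0.33, was the smallest after that of *Vim*.

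*S100a4* (chromosome 3, 90603771 to 90606045, plus strand) encodes the calcium-binding protein also called fibroblast-specific protein. It was at 5.86 and 5.96 in the first-run controls, 8.04 in the second-run control and 7.69, 6.64 and 6.93 in the libraries labelled Hsp47-deleted. All of the latter lay between the lowest and the highest control. The difference was 0.47 pooled (standard error 0.61, 95% interval -0.95 to 1.89, limma, BH-adjusted p = 0.727; exact permutation p = 0.6) and -0.96 within the second run (95% interval -2.00 to 0.084). With 1 library left out, the pooled difference ranged from 0.085 (without control replicate 3) to 1.18 (without control replicate 2). Another annotated gene, *Gm42674*, matched it at 100% identity over 74.4% of an *S100a4* transcript and was not analysed here. A transcript of *AC162182.1* likewise matched 57.2% of *Pi16*, and how reads shared with such transcripts were assigned is not known.

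**Figure D3:**
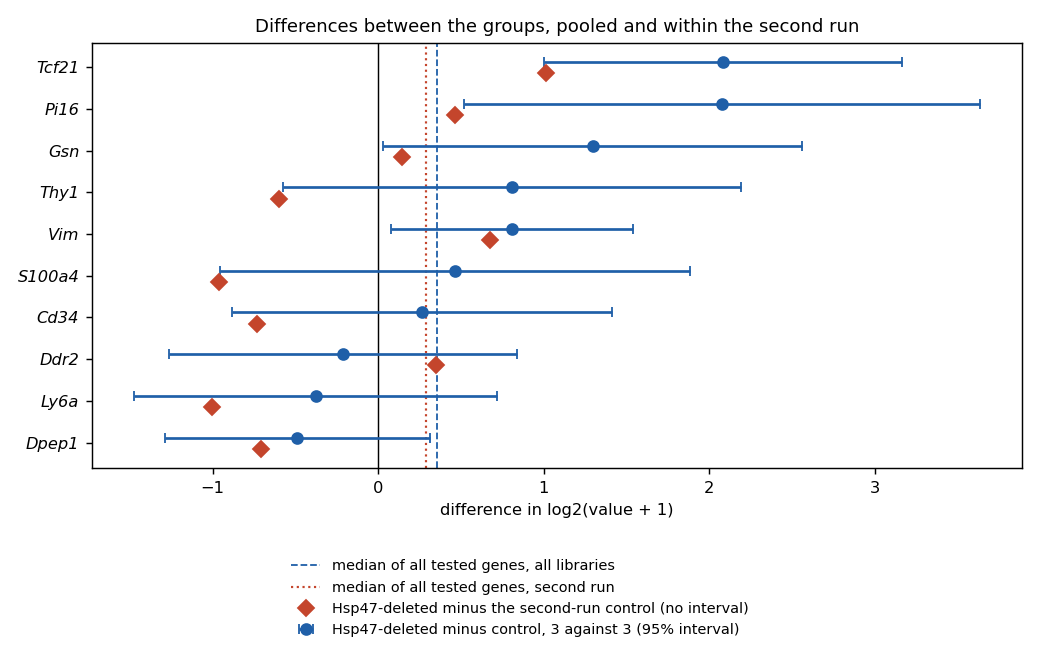
Circles give the difference in log2(value + 1) of each gene between all libraries labelled Hsp47-deleted and all controls (3 against 3) with the 95% interval of the limma fit, and diamonds the difference from the second-run control alone, without an interval. Dashed and dotted lines mark the medians of all tested genes, 0.35 and 0.29, and *Thy1*, *Cd34*, *S100a4* and *Ddr2* have circles and diamonds on opposite sides of 0.

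Read library by library, both first-run controls were below all 4 libraries of the second run in 7 of the 10 genes. These were *Pi16*, *Gsn*, *S100a4*, *Vim*, *Thy1*, *Tcf21* and *Cd34*, and 35.0% of all tested genes had this arrangement. The reverse arrangement, seen in 9.92%, occurred in none of the 10. In *Vim* and *Tcf21* the libraries labelled Hsp47-deleted were also above all controls, so that their order follows the label as well as the run. Compared with the second-run control alone, all 3 libraries labelled Hsp47-deleted were lower in 5 genes (*S100a4*, *Thy1*, *Ly6a*, *Dpep1* and *Cd34*), against 11.7% of all tested genes, and higher in 2 (*Tcf21* and *Vim*), against 46.7%. These counts describe the 10 genes and were not tested as a set.

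The libraries labelled Hsp47-deleted also differed among themselves. Replicate 3 was the lowest of the 3 in 6 genes (*Pi16*, *Gsn*, *Thy1*, *Ly6a*, *Dpep1* and *Cd34*), beside 44.5% of all tested genes, and the highest in *Vim*, *Tcf21* and *Ddr2*, beside 35.9%. Its sums of endothelial (286), cardiomyocyte (183), mural (181) and erythroid (218) markers were also the lowest of the 3. So were those of Schwann cell (18.9) and mesothelial (3.48) markers, but its leukocyte sum was not. Without control replicate 2, *Tcf21*, *Pi16*, *Gsn*, *Thy1* and *Vim* passed the adjusted threshold, with *Tcf21* at 2.62 (standard error 0.26, limma, BH-adjusted p = 0.00195) and *Pi16* at 2.89 (standard error 0.34, limma, BH-adjusted p = 0.00380). In that comparison, which called 18.3% of all tested genes, run and label coincide and cannot be told apart.

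The 3 further lists place the identity genes among other fibroblast genes. Of 20 other genes of resident fibroblasts, 0 passed the adjusted limma threshold and 3 the unadjusted one, all higher in the libraries labelled Hsp47-deleted, a share close to the 15.2% of all tested genes. The median difference was 0.62 pooled and 0.021 within the second run, beside 0.35 and 0.29 for all tested genes. *Mgp*, the calcification inhibitor matrix Gla protein, was at 11.20 in both first-run controls, 12.71 in the second-run control and 14.08, 13.82 and 13.80 in the libraries labelled Hsp47-deleted. Its difference was 2.20 (standard error 0.50, limma, BH-adjusted p = 0.192). *Hsd11b1*, a glucocorticoid-activating enzyme, differed by 1.95 (BH-adjusted p = 0.294), the transcription factor *Hic1* by 1.70 (0.307) and *Lsp1* by 1.19 (0.333). Within the second run these differences were 1.19, 0.27, 0.38 and 0.18.

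Of 15 genes that accompany *Pi16* and *Dpp4* in fibroblast progenitors, 0 passed the adjusted limma threshold and 3 the unadjusted one (15.2% of all tested genes), again all higher. The median of the list was -0.055, and 0.21 within the second run, both below the medians of all tested genes (0.35 and 0.29). The 4 members with the smallest p were *Igfbp6*, a binding protein for insulin-like growth factors (1.85, BH-adjusted p = 0.252), the microfibril gene *Mfap5* (0.83, 0.306), *Anxa3* (0.86, 0.313) and *Clec3b* (1.73, 0.393). Groups did not overlap for 4 of the 15, *Igfbp6*, *Mfap5*, *Anxa3* and *Ackr3* (listed as *Cxcr7* and named after its values were seen), against 19.8% of all tested genes. The first 3 are the genes that passed the unadjusted threshold with higher values. *Ackr3* did not pass it, and the direction of its difference is not given here. *Clec3b* was at 2.20 and 1.59 in the first-run controls, 5.24 in the second-run control and 5.56, 4.92 and 3.75 in the libraries labelled Hsp47-deleted. The difference of *Clec3b* within the second run was -0.50. *Pi16* at 2.08 thus stood above the median of the genes with which it is usually listed.

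Of 20 genes of the activated myofibroblast, 3 passed the adjusted threshold (0.245% of all tested genes) and 11 the unadjusted one (15.2%), 10 of the 11 with a positive difference. The list was chosen with earlier results of these data known, so its counts are not independent of them. It holds *Postn*, *Cthrc1* and *Lox*, which the study reports by RT-PCR as induced in Hsp47-deleted myofibroblasts. It also holds *Col1a1*, *Col3a1* and *Fn1*, which the study reports by RT-PCR as reduced. Of the 20 genes, 18 had a positive pooled difference, as did 74.5% of all tested genes. The 3 genes reported as reduced were therefore not all lower in these libraries. The median of the list was 0.99 pooled and 0.96 within the second run, beside 0.35 and 0.29 for all tested genes. It was 0.46 with quantile normalization, 0.58 with centring and 0.51 with sums equal outside the mitochondrial genes. The median of all tested genes was then -0.048, -0.060 and -0.047. Both first-run controls were below all other libraries in 9 of these 20 genes, against 35.0% of all tested genes. *Postn*, the matricellular gene whose locus carries MerCreMer in all of these mice, was at 5.87 and 5.86 in the first-run controls, 6.12 in the second-run control and 10.22, 10.50 and 10.36 in the libraries labelled Hsp47-deleted. It rose by 4.41 (standard error 0.28, limma, BH-adjusted p = 0.00337). The matrix protein gene *Comp* rose by 3.70 (standard error 0.50, limma, BH-adjusted p = 0.0485) and *Cthrc1*, a secreted marker of myofibroblasts, by 2.02 (standard error 0.27, limma, BH-adjusted p = 0.0485). Of the 18 tested alternatives, 11 ended the call of *Comp*, 13 that of *Cthrc1* and 1, the block on replicate number, that of *Postn* (4.44, limma, BH-adjusted p = 0.187), with the direction kept in all. *Sfrp2*, a secreted Wnt modulator, had a difference of 1.99 (limma, BH-adjusted p = 0.0720).

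**Figure D4:**
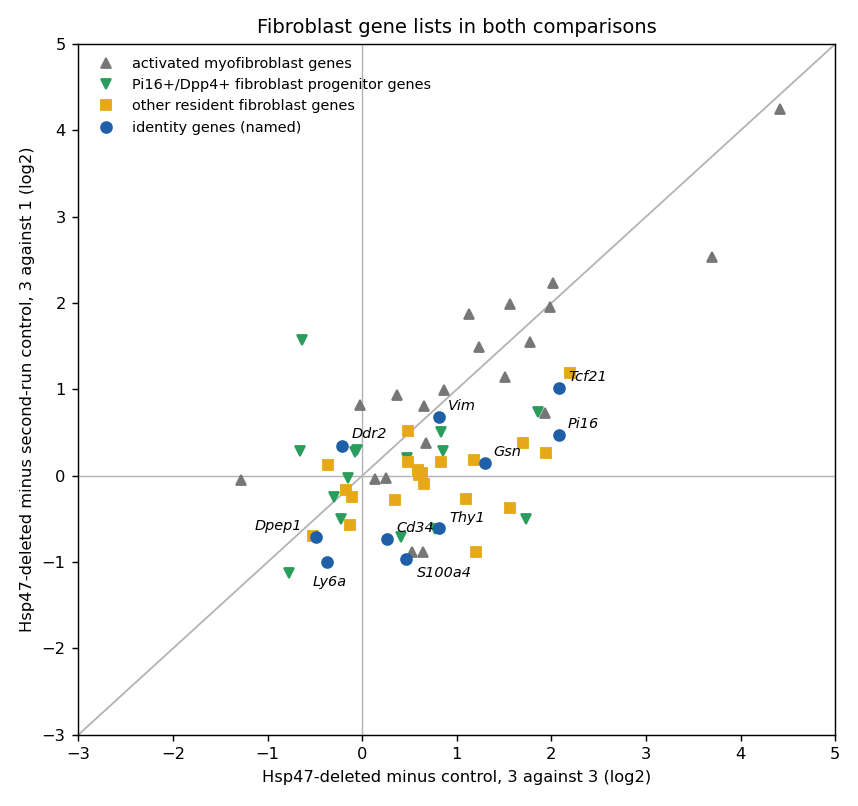
Each symbol is a gene, placed by its log2 difference between all libraries labelled Hsp47-deleted and all controls (horizontal axis) and from the second-run control alone (vertical axis); both use the same libraries labelled Hsp47-deleted and share that control, so the axes are not independent. The 10 identity genes are named, with *Tcf21*, *Pi16*, *Gsn* and *Vim* above 0 on both axes, *Ly6a* and *Dpep1* below 0 on both, and the uppermost triangle is *Postn* (4.41 and 4.24).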

How the data were processed

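RNA from 6 sorts of EGFP+ ventricular cells (3 control, 3 labelled Hsp47-deleted) was amplified, made into libraries with tagmentation and sequenced on an Illumina HiSeq2500. The authors deposited log2(value + 1) per gene and library, with the linear unit not named. The submitters' processing notes name kallisto and mm10, with versions and settings not given in the sources used here, and the study names AltAnalyze. Only 0.338% of linear values were within 0.001 of a whole number. The authors' group means, fold changes and p-values, also in the table, were not used.

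Genes with a mean linear value of at least 1 were kept (15109 of 28987). The comparison of groups used limma 3.58.1 under R 4.3.3 (mean-variance trend, no covariate, all 6 libraries), with BH adjustment over all genes kept and a threshold of 0.05. In simulated data for these 15109 genes, 82 of 200 changed genes and 2 unchanged genes were called, and 0 without change. The simulated noise was independent between libraries and held no step between runs, so these counts do not give the error rate in the real data. Single genes were also compared by exact two-sided permutation over libraries, which with 3 against 3 cannot give a p under 0.1. Whether libraries of a group come from separate preparations is known only from their labels, so p-values measure the spread between these libraries.

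The 10 genes, the lists and the tests were chosen with earlier results of these data known. Named genes are the 10, *Serpinh1*, the 4 genes with the smallest p in each of 3 fibroblast lists with any called, and close relatives of a member. Markers of 7 other cell types (endothelial, mural, mesothelial, Schwann and erythroid cells, leukocytes and cardiomyocytes) were summed on the linear scale, and 4 list genes were matched by gene ID under an older symbol. Positions and transcripts are from GENCODE M21 (GRCm38), promoters from RefSeq (GRCm38.p6), and related transcripts were found with minimap2 2.31-r1302. Alternatives were sequencing run as a covariate, the second run alone, a block on replicate number, quantile normalization, a filter at a mean of 5 or none, a pseudocount of 0.1 or 5, median centring, equal sums, equal sums without mitochondrial genes, limma without trend and with robust estimation (statmod 1.5.0), and each library left out.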

Additional observations from a re-analysis of the deposited data

How the results depend on the processing

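*Tcf21*, *Pi16*, *Vim* and *Gsn* stayed higher and *Ly6a* and *Dpep1* stayed lower in the libraries labelled Hsp47-deleted under all 18 tested alternatives and in the second run alone, and the other 4 of the 10 genes changed sign in at least 1. With run as a covariate, as in the second run alone, the median of the 10 was -0.23, *Thy1* was at -0.60, *Cd34* at -0.73, *S100a4* at -0.96, *Ddr2* at 0.35, *Serpinh1* at -0.87, *Clec3b* at -0.50 and the progenitor list at 0.21. Of the 10 genes, 2 had an unadjusted limma p under 0.05 with run as a covariate, with no filter, and with equal sums, against 4. The shares of all tested genes were 6.73%, 9.59% and 12.6%, against 15.2%. *Cd34* was at -0.26 with quantile normalization, -0.15 with centring and -0.22 without mitochondrial genes, where *S100a4* was at -0.015. *Serpinh1* was at -0.27, -0.34, -0.055 and -0.41 with quantile normalization, centring, equal sums and without mitochondrial genes. The median of the 10 genes was 0.26, 0.22 and 0.15 with quantile normalization, centring and without mitochondrial genes. The median of all tested genes moved from 0.35 to -0.048 with quantile normalization, -0.060 with centring and -0.047 without mitochondrial genes. A mean of at least 5 put the progenitor list at 0.21. Over all tested genes 37 were called, and 16 with a pseudocount of 0.1, 17 with quantile normalization, 18 with centring and 17 without mitochondrial genes.

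Leaving out 1 library at a time gave 8 (without Hsp47-deleted replicate 3) to 2768 genes (without control replicate 2). Of the 10, from 0 to 5 were called, the 5 only without control replicate 2, and from 1 to 6 had an unadjusted limma p under 0.05 (1 without control replicate 3, without control replicate 4 or without Hsp47-deleted replicate 1, and 2 without Hsp47-deleted replicate 2). Over all tested genes the unadjusted share ranged from 6.04% (without control replicate 3) to 35.1% (without control replicate 2), where 6 of the 10 genes reached it. *Cd34* ranged from -0.065 to 0.77, *Ddr2* from -0.59 to 0.12, *Serpinh1* from -0.21 to 0.54 and the progenitor median from -0.081 to 0.32. The cause of these changes was not tested.

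Replicate numbers 2 and 3 are shared by both groups but name different mice, and the deviations of same-numbered libraries correlated across genes with r = 0.156 and 0.228. With a block on replicate number, 0 genes were called by limma (1545 at an unadjusted p under 0.05), *Cd34* was at -0.27, *S100a4* at -0.17, *Ddr2* at 0.36, *Serpinh1* at -0.28 and the progenitor median at 0.083. Read numbers are unknown, so the precision of low values cannot be given. Each comparison within the second run rests on 1 control.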

Other observations

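Lists of other cell types gave the following values, for which no test of the list was made. The 10 mural cell markers summed to 189 and 316 in the first-run controls, 288 in the second-run control and 181 to 273 in the libraries labelled Hsp47-deleted. Erythroid markers summed to 20.4 and 113, then 857, then 218 to 476, and Schwann cell markers to 9.73 and 12.8, then 20.0, then 18.9 to 24.3. Mesothelial markers were low throughout, at 1.37 and 6.02, then 6.35, then 3.48 to 11.3, with *Muc16* listed at 0 in all libraries. None of the markers of these cell types or of cardiomyocytes, endothelial cells and leukocytes passed the adjusted limma threshold, and at an unadjusted p under 0.05, which 15.2% of all tested genes reached, the counts were 3 of 10 tested mural, 0 of 5 erythroid, 1 of 4 Schwann cell, 0 of 1 mesothelial, 2 of 9 cardiomyocyte, 2 of 10 endothelial and 1 of 8 leukocyte markers.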
